A study of Mus musculus with 8 samples.

Results

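The transmembrane BAX inhibitor motif-containing (TMBIM) family was examined through its members Tmbim6, Tmbim1, Tmbim4, Grina, Faim2 and Ghitm, taken from the expression table by gene symbol alone. All 6 were found among 24940 gene rows. The table covers mouse bone marrow-derived macrophages, the cells that give rise to osteoclasts when exposed to RANKL, a cytokine of the TNF family. Marrow came from C57BL/6 mice aged 6 to 8 weeks and was grown in M-CSF, the macrophage growth factor, at 5 ng/ml for 16 h and then at 30 ng/ml for 3 days. The cells carried a short hairpin labelled NCsh, a name the labels do not spell out, or one labelled TMBIM6sh. Each was sampled with no RANKL or with RANKL, which the protocol gives as 100 ng/ml for 24 h alongside M-CSF at 30 ng/ml. This gave 4 groups of 2 libraries each. The RANKL state was taken from the titles, because the treatment text is the same for every library. Each hairpin is represented by a single name, so the hairpin and the way its cells were prepared cannot be told apart. The labels do not say whether duplicates came from separate mice or cultures, so every p-value is set against a spread between libraries that may be technical only. Values are RPKM as deposited, that is, reads scaled to exon length and to the mapped reads of the library.

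TMBIM proteins are small membrane proteins with several membrane-spanning segments that sit in different intracellular membranes and are known for limiting cell death and for controlling calcium stores. TMBIM6, also called BAX inhibitor-1, lies in the endoplasmic reticulum (ER), lowers the ER calcium content and dampens the stress sensor IRE1. GRINA (TMBIM3) lies in the ER and Golgi, TMBIM4 in the Golgi, TMBIM1 in lysosomes and endosomes, and GHITM (TMBIM5) in the inner mitochondrial membrane. FAIM2 (TMBIM2) is known mainly from neurons, where it protects against Fas-driven death.

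In the mm10 build used by the table, Tmbim6 (NM_026669) lies at chr15:99392947-99410049 on the plus strand and Grina (NM_023168) at chr15:76246807-76249904, also on the plus strand. Faim2 (NM_001038658) lies near Tmbim6, at chr15:99497005-99528165 on the minus strand. Tmbim1 (NM_027154) lies at chr1:74288247-74304336 on the minus strand, Tmbim4 (NM_026617) at chr10:120208826-120224897 on the plus strand, and Ghitm (NM_078478) at chr14:37120445-37135322 on the minus strand. Reads were counted over exons of both strands together, so each member was checked for exons it shares with another gene. In GENCODE M21, of the same assembly, 0 exon bases of the 6 transcripts paired with these accessions were overlapped by exons of another gene. These transcripts differ in length from the counted rows, for example 4168 against 4618 bases for Faim2 and 3188 against 2894 for Ghitm. The check thus covers the GENCODE exons only. No run of 50 bases was common to any pair of the members. The hairpin sequences are not given in the sources used here, so the transcripts were compared with Tmbim6 itself. The longest run that another member's transcript shared with the Tmbim6 transcript, on the same strand, was 14 bases long and belonged to Grina. It lies in the coding sequence of both genes, at base 558 of Tmbim6-201 and base 1027 of Grina-201, counted from the transcript start, and in Grina it spans an intron. It is shown because Grina was the member that moved against the others; all letters are shared:
Tmbim6 and Grina: tcttcacctgcttc
The longest runs shared with Tmbim6 were 12 bases in Faim2, 11 in Tmbim1, and 10 in both Tmbim4 and Ghitm. The stretch of Tmbim6 that the hairpin targets is not known here, so a match of the hairpin to another member was not tested. The run lengths that unrelated transcripts share were not counted.

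A RefSeq (GRCm38.p6) promoter at exactly the start of the member's row was found for 2 of the 6 members, Tmbim1 and Ghitm. Both genes were lower in the TMBIM6sh libraries. Ghitm had 3 promoters in this source, and only the 1 at the start of its row is printed. The 250 bases before each annotated start are printed 5′ to 3′ on the gene's strand, at chr1:74304337-74304586 and chr14:37135323-37135572, both on the minus strand. Capitals mark CCAAT, or ATTGG where the motif is on the other strand:
Tmbim1: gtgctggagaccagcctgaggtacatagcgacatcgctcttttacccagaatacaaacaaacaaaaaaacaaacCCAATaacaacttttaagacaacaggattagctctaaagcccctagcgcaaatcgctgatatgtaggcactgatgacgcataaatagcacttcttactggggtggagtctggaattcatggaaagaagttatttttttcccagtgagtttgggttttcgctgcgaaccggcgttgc
Ghitm: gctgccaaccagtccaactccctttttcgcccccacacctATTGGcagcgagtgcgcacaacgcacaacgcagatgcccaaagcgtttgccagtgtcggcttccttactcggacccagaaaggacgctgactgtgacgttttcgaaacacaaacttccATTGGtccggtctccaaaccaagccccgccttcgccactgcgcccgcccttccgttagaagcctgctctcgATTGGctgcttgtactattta
The Tmbim1 window held 1 CCAAT, 176 bases before the start, and the Ghitm window held 3, at 210, 92 and 21 bases. CCAAT on either strand was present in 33.85% of 32851 promoter windows of this length. GGGCGG was found once in Ghitm, 49 bases before the start, and not in Tmbim1, and 32.74% of windows held it. TGACG was found once in each window, and in 17.77% of all windows. CACGTG (6.02% of windows), CCACG (28.34%) and TATAAA (12.37%) were searched on both strands and were in neither window. GC content was 44.0% in the Tmbim1 window and 56.4% in the Ghitm window.

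Libraries held between 25475000 and 28595000 tags, read from the step size of the RPKM values, and between 83.5% and 86.4% of tags fell in genes. All 6 macrophage markers (Adgre1, Csf1r, Cd68, Itgam, Fcgr1 and Mertk) were above 1 RPKM in every library, with summed levels of 1901 to 2280 RPKM. The osteoclast markers Ctsk, Calcr, Ocstamp and Oscar summed to 0.108 to 0.482 RPKM, so these cells carried macrophage RNA and almost no RNA of these osteoclast genes in either RANKL state. Lists for T cells, B cells, neutrophils and dendritic cells summed to at most 0.430 RPKM, stromal genes to at most 2.81 and endothelial genes to at most 3.83.

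Tmbim6, the gene named in the hairpin label, was the most abundant member in the NCsh cells and the least abundant detected member in the TMBIM6sh cells. It measured 330.0 and 334 RPKM in the NCsh libraries without RANKL, 309 and 321 with RANKL, 11.1 and 11.7 in the TMBIM6sh libraries without RANKL, and 10.0 and 10.5 with RANKL. The 4 TMBIM6sh libraries lay far below all 4 NCsh libraries, at 3.44% of the NCsh mean without RANKL and 3.25% with it. Between 612 and 793 tags remained on Tmbim6 in each TMBIM6sh library, so the residual level was well above the count of 3 tags used here as the limit of detection. The group means were 332 ± 2.60, 315 ± 8.48, 11.4 ± 0.395 and 10.2 ± 0.305 RPKM (SD, n = 2 each). The difference on the log2(RPKM + 1) scale was -4.74 (SE 0.0574) without RANKL and -4.81 with RANKL, with limma adjusted p = 6.52e-11 and 5.68e-11. It ranked 1 from the lowest among 11040 genes tested in both states.

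Grina was the member that rose. It measured 95.9 and 98.5 RPKM in the NCsh libraries without RANKL, 87.5 and 89.65 with RANKL, 174 and 184 in the TMBIM6sh libraries without RANKL, and 148 and 161 with RANKL. The lowest TMBIM6sh library stood at 148 RPKM and the highest NCsh library at 98.5, so the groups did not overlap. Means were 97.2 ± 1.84, 88.6 ± 1.50, 179 ± 6.50 and 154 ± 9.49 RPKM (SD, n = 2 each), which put the TMBIM6sh mean 1.84-fold higher without RANKL and 1.74-fold higher with it. The log2 differences were 0.87 (SE 0.0633, 95% interval 0.73 to 1.02) and 0.79 (0.65 to 0.94), with limma adjusted p = 3.00e-05 and 3.49e-05. Among all genes tested Grina ranked 70 from the highest without RANKL and 80 with RANKL. The ratio of Grina to Tmbim6 went from 0.279 to 0.295 in the NCsh libraries to 14.7 to 15.7 in the TMBIM6sh libraries.

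Tmbim4, the Golgi member, fell in both states and had the lowest estimates after Tmbim6. It measured 44.1 and 52.2 RPKM in the NCsh libraries without RANKL, 38.9 and 42.5 with RANKL, 33.1 and 31.0 in the TMBIM6sh libraries without RANKL, and 30.7 and 33.7 with RANKL. The TMBIM6sh libraries were close to each other whatever the RANKL state, while the NCsh libraries were spread from 38.9 to 52.2 RPKM. Means were 48.2 ± 5.79, 40.7 ± 2.54, 32.0 ± 1.49 and 32.2 ± 2.13 RPKM (SD, n = 2 each). The log2 difference between hairpins was -0.57 (SE 0.0898, limma adjusted p = 0.00172) without RANKL and -0.33 (adjusted p = 0.0222) with RANKL. The second call was lost without NCsh_RANKL replicate 2 and without TMBIM6sh_RANKL replicate 1, both at adjusted p = 0.136, and with no filter on low values, at 0.0781.

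Tmbim1, the endosomal and lysosomal member, was lower in the TMBIM6sh cells in both states. It measured 81.4 and 82.9 RPKM in the NCsh libraries without RANKL, 72.5 and 69.4 with RANKL, 67.2 and 69.0 in the TMBIM6sh libraries without RANKL, and 56.1 and 60.8 with RANKL. Within each RANKL state the hairpins were well separated, but across states the lowest NCsh library (69.4) stood just above the highest TMBIM6sh library (69.0). Means were 82.2 ± 1.06, 71.0 ± 2.14, 68.1 ± 1.32 and 58.4 ± 3.33 RPKM (SD, n = 2 each). The log2 differences between hairpins were -0.27 (SE 0.0610, limma adjusted p = 0.0115) without RANKL and -0.28 (adjusted p = 0.00832) with it. The first was lost without TMBIM6sh_No RANKL replicate 1 (adjusted p = 0.0973) or replicate 2 (0.0609), and the second without NCsh_RANKL replicate 1 (0.0743) or TMBIM6sh_RANKL replicate 1 (0.0554).

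Ghitm, the mitochondrial member, was the second most abundant member in every group and was lower in the TMBIM6sh cells. It measured 109 and 119 RPKM in the NCsh libraries without RANKL, 115 and 121 with RANKL, 94.3 and 98.5 in the TMBIM6sh libraries without RANKL, and 96.0 and 98.7 with RANKL. The highest TMBIM6sh library lay below the lowest NCsh library. Means were 114 ± 7.02, 118 ± 4.86, 96.4 ± 2.96 and 97.4 ± 1.93 RPKM (SD, n = 2 each). The log2 differences between hairpins were -0.23 (SE 0.0649, limma adjusted p = 0.0272) without RANKL and -0.28 (adjusted p = 0.0114) with RANKL. The first was lost without either TMBIM6sh_No RANKL replicate (adjusted p = 0.188 without replicate 1 and 0.0905 without replicate 2), without NCsh_No RANKL replicate 2 (0.0961) and under 3 other settings. The second was lost without NCsh_RANKL replicate 2 (0.0921) or TMBIM6sh_RANKL replicate 1 (0.0615).

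Faim2 was not detected. Its row was listed at 0 in all 8 libraries, and a count of 3 tags would have read 0.0227 to 0.0255 RPKM, which is the limit these depths allow, for counting error only. Tmbim7, the one other row of the table whose symbol starts with Tmbim, held 2 tags (0.049 RPKM) in NCsh_No RANKL replicate 2 and 0 in the rest, under its own limit of 0.0732 to 0.0822 RPKM. Levels in bulk RNA cannot tell fewer cells of a type from less RNA per cell.

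**Figure D1:**
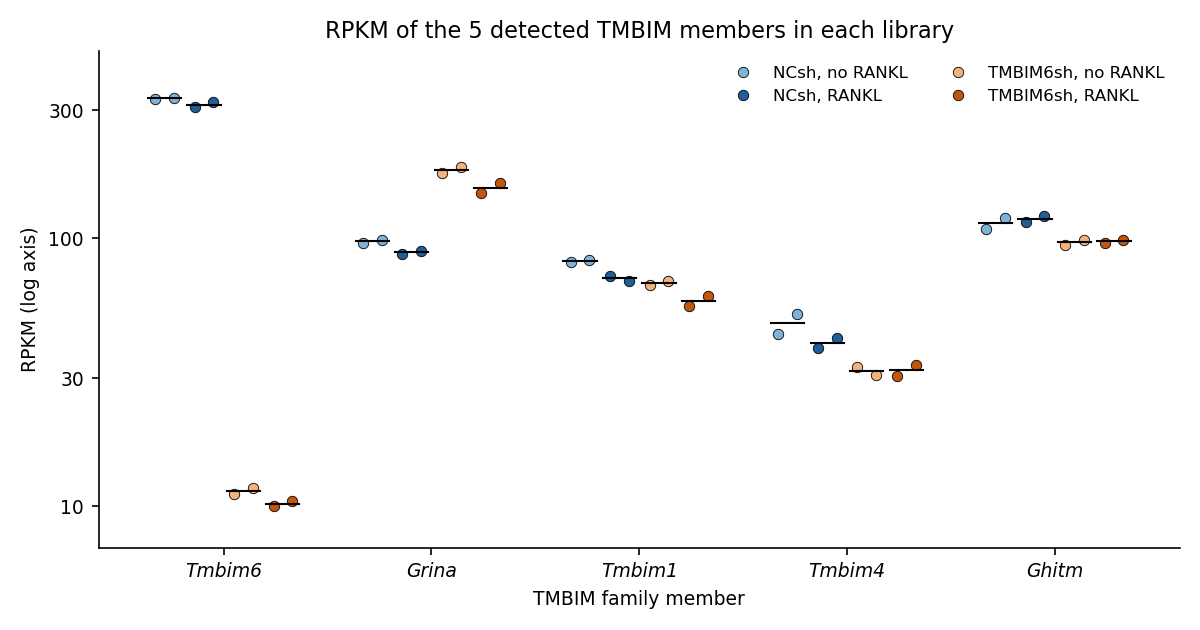
RPKM of each detected member in the 8 libraries, on a log axis; each point is 1 library, colours mark hairpin and RANKL state, and black bars are group means (n = 2). Tmbim6 drops from between 309 and 334 RPKM in the NCsh libraries to between 10.0 and 11.7 in the TMBIM6sh libraries, Grina moves up, and the other 3 members move down by smaller amounts.

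The members kept a fixed order within each hairpin. In both NCsh groups the order of mean RPKM was Tmbim6, Ghitm, Grina, Tmbim1, Tmbim4, Faim2. In both TMBIM6sh groups it was Grina, Ghitm, Tmbim1, Tmbim4, Tmbim6, Faim2. Ghitm, Tmbim1 and Tmbim4 stood in the same order throughout. The duplicate values of neighbouring members in these orders did not overlap in any of the 4 groups. The members of such a pair were measured in the same 2 libraries, and their order was described and not tested.

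Across the family, 5 of the 6 members passed the filter on low values, Faim2 being the exception, and all 5 were called at an adjusted p under 0.05 in the hairpin comparison in both RANKL states. Without RANKL 24.2% of all genes tested were called (10.4% higher, 13.8% lower), and with RANKL 28.6% (8.93% higher, 19.7% lower). The hairpin difference thus reached a large share of the transcriptome, and 1 member was called higher and 4 lower in each state. The median log2 difference of the 5 members was -0.27 without RANKL and -0.28 with RANKL, beside -0.02 and -0.07 over all genes tested. Tmbim6 is one of these 5, and it is the gene named in the hairpin label. Without it the remaining 4 had medians of -0.25 and -0.28.

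Averaging the hairpin difference over both RANKL states set 4 NCsh against 4 TMBIM6sh libraries and called 40.6% of all genes tested, 15.2% higher and 25.4% lower. The averaged log2 difference was -4.78 (95% interval -4.87 to -4.69) for Tmbim6 and 0.83 (0.73 to 0.93) for Grina, with limma adjusted p = 2.23e-12 and 1.35e-06. Grina then ranked 60 from the highest of 11040 genes. It was -0.45 (-0.59 to -0.31, adjusted p = 4.27e-04) for Tmbim4, -0.27 (-0.37 to -0.18, adjusted p = 8.43e-04) for Tmbim1 and -0.25 (-0.36 to -0.15, adjusted p = 0.00178) for Ghitm. The values of the 4 NCsh and the 4 TMBIM6sh libraries did not overlap for any of these 5 members. The share of all genes tested without such overlap was not counted, so this is not shown to be particular to the family. All 5 averaged calls held under each of the 14 alternative settings tried, scaling of the libraries included.

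Some cell type markers differed between the hairpins in the same libraries. The 6 macrophage genes summed to 2053 to 2280 RPKM in the NCsh libraries and 1901 to 2072 in the TMBIM6sh libraries. Of these 6, 2 were called lower averaged over RANKL states, where 25.4% of all genes tested were called lower and 15.2% higher. The 2 were Csf1r, the M-CSF receptor gene (-0.19, limma adjusted p = 0.00600), and Mertk (-0.34, adjusted p = 0.00342). Libraries of both genes overlapped between hairpins across RANKL states but not within either state. Both were called with RANKL (adjusted p = 0.00762 for Csf1r and 0.00669 for Mertk) but not without (0.260 and 0.133). The 3 stromal genes summed to 1.76 to 2.13 RPKM in the NCsh libraries and 2.005 to 2.81 in the TMBIM6sh libraries. Of these, Col1a1 was called higher averaged over RANKL states (0.32, limma adjusted p = 0.0442), but was not called in either state alone. Its highest NCsh library and its lowest TMBIM6sh library both measured 0.887 RPKM. Col1a2 differed by -0.03 (adjusted p = 0.812). The 2 endothelial genes summed to 2.83 to 3.83 RPKM in the NCsh libraries and 2.49 to 3.08 in the TMBIM6sh libraries. They moved in opposite directions. Pecam1 was called lower (-0.43, limma adjusted p = 0.00763), with adjusted p = 0.0219 with RANKL and 0.121 without. Cdh5, under the filter and so not tested, measured 0.447 to 0.563 RPKM in the NCsh libraries and 0.656 to 0.927 in the TMBIM6sh libraries. The part of these markers in the changes of the family was not tested.

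**Figure D2:**
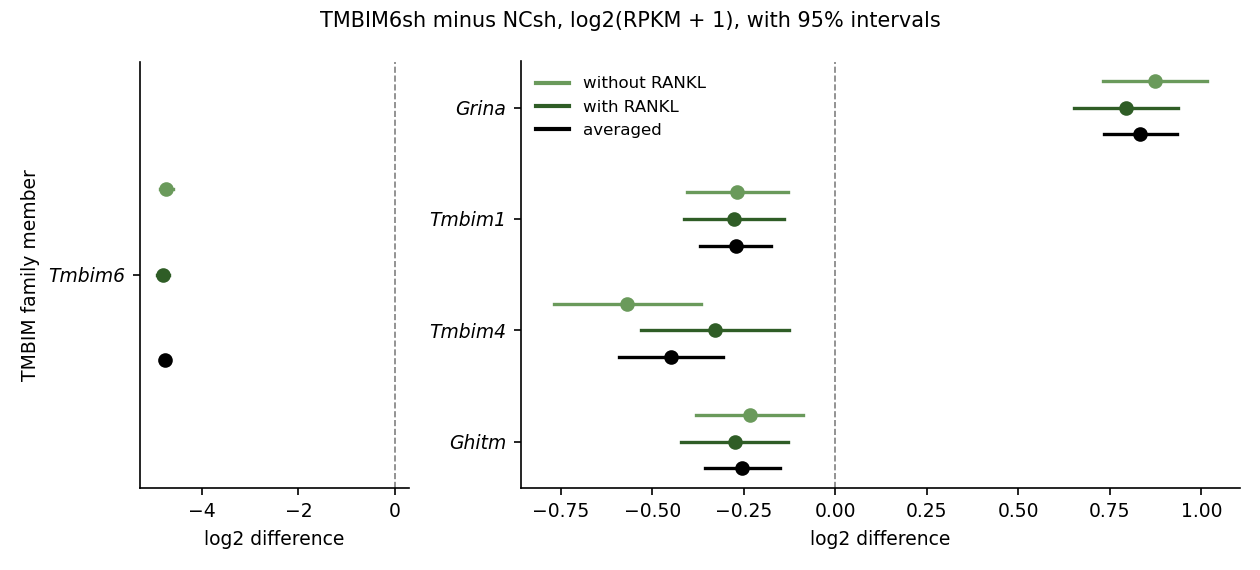
Log2 difference between TMBIM6sh and NCsh, in log2(RPKM + 1), for Tmbim6 (left) and the other 4 detected members (right, on its own scale); points are limma estimates, lines 95% intervals, and filled points have an adjusted p under 0.05. Grina alone lies to the right of 0, with an averaged difference of 0.83, while the other members lie to the left.

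The summed level of the family, given as a description with no test, was lower in the TMBIM6sh cells despite the rise of Grina. The 6 members together came to 673 ± 18.3 RPKM in the NCsh group without RANKL, 633 ± 15.2 with RANKL, 387 ± 9.68 in the TMBIM6sh group without RANKL and 353 ± 17.2 with RANKL (SD, n = 2 each). The TMBIM6sh sums were 57.5% and 55.7% of the NCsh sums. Without RANKL, Tmbim6 dropped by 320.4 RPKM and Grina gained 81.8 RPKM, while Ghitm dropped by 17.2, Tmbim4 dropped by 16.1 and Tmbim1 dropped by 14.1. With RANKL, Tmbim6 dropped by 305 RPKM and Grina gained 65.8, while Ghitm dropped by 20.7, Tmbim1 dropped by 12.5 and Tmbim4 dropped by 8.49. In both states the gain of Grina was larger than the combined losses of Ghitm, Tmbim1 and Tmbim4. The sum without Tmbim6 was 341.2 ± 15.7 against 375 ± 9.28 RPKM without RANKL, and 318 ± 6.75 against 342 ± 16.9 with RANKL (NCsh against TMBIM6sh, SD, n = 2). Tmbim6 made up 49.3% of the family sum in the NCsh group without RANKL and 49.7% with RANKL, against 2.95% and 2.90% in the TMBIM6sh groups. Grina went from 13.9% to 14.5% of the sum in the NCsh libraries to 43.4% to 46.6% in the TMBIM6sh libraries and became the leading member.

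**Figure D3:**
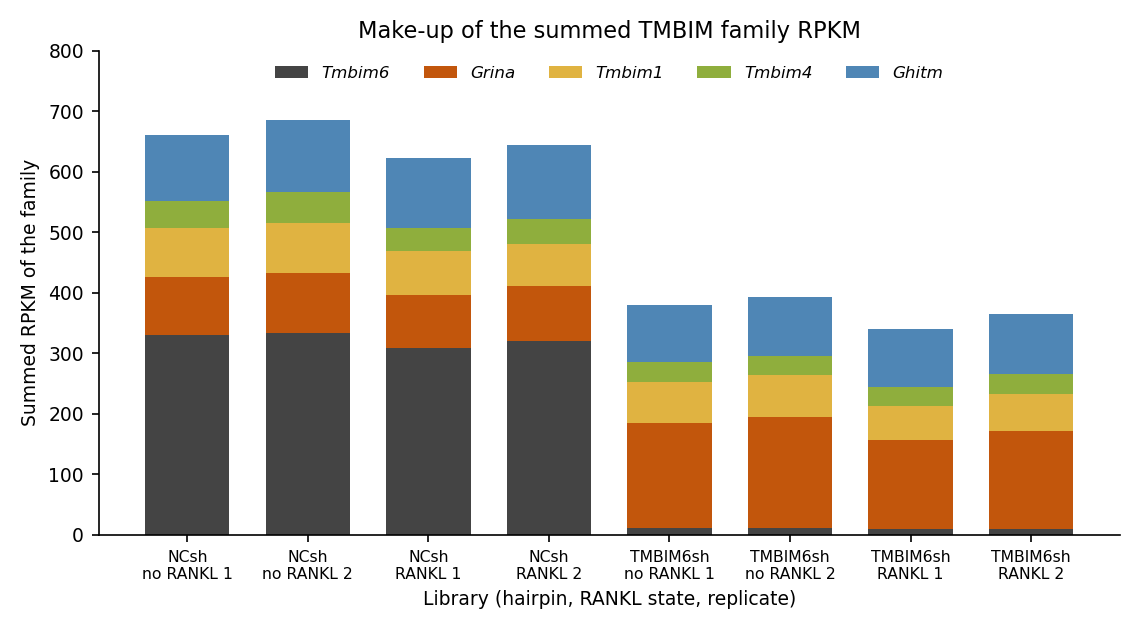
Summed RPKM of the family in each library, stacked by member, with the axis starting at 0; Faim2 is at 0 and has no segment. Tmbim6 fills about 49.3% of the NCsh columns without RANKL and nearly vanishes from the TMBIM6sh columns, whose largest segment is Grina.

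Fewer members were called for RANKL than for the hairpin. In NCsh cells 15.0% of all genes tested were called for RANKL against no RANKL, and 3.98% of all genes tested were called lower. In TMBIM6sh cells these shares were 15.4% and 6.89%. Of the 5 members, 1 was called in NCsh cells and 2 in TMBIM6sh cells, all lower. Tmbim1 fell by 0.21 on the log2 scale in NCsh cells (SE 0.0610, limma adjusted p = 0.0473) and by 0.22 in TMBIM6sh cells (adjusted p = 0.0397). Both calls lie close to the threshold: the first was lost under 10 of 15 alternatives and the second under 7 of 15. Grina fell by 0.21 in TMBIM6sh cells (SE 0.0633, adjusted p = 0.0498), a call lost under 9 of 15 alternatives, and differed by -0.13 in NCsh cells (adjusted p = 0.194).

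Tmbim6 itself differed by -0.08 in NCsh cells (adjusted p = 0.419) and by -0.15 in TMBIM6sh cells (adjusted p = 0.126) with RANKL. Tmbim4 differed by -0.23 in NCsh cells (95% interval -0.43 to -0.03, limma adjusted p = 0.114) and by 0.01 in TMBIM6sh cells (-0.19 to 0.21, adjusted p = 0.973). Ghitm differed by 0.06 (-0.09 to 0.20, adjusted p = 0.613) and 0.01 (-0.13 to 0.16, adjusted p = 0.921), and its sign turned when the libraries were rescaled to a common median ratio. The same rescaling called Tmbim4 (-0.31, adjusted p = 0.0324) and Grina (-0.21, adjusted p = 0.0253) lower in NCsh cells. The median over all genes tested was 0.06 in NCsh cells and 0.02 in TMBIM6sh cells before it, and the median of the 5 members was -0.13 and -0.15.

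Averaged over both hairpins, RANKL called 26.7% of all genes tested (17.1% higher and 9.59% lower, both of all genes tested), and 2 of the 5 members, both lower. Tmbim1 fell by 0.21 (SE 0.0431, 95% interval -0.31 to -0.12, limma adjusted p = 0.00546), and this held under all 14 alternatives. Grina fell by 0.17 (SE 0.0448, adjusted p = 0.0189), but not without NCsh_RANKL replicate 1 (0.0765) or 2 (0.0530), TMBIM6sh_No RANKL replicate 2 (0.0929) or TMBIM6sh_RANKL replicate 1 (0.0555). Tmbim6 differed by -0.11 (-0.20 to -0.02, adjusted p = 0.0713), and by -0.16 (adjusted p = 0.00917) after median-ratio scaling. Tmbim4 differed by -0.11 (-0.26 to 0.03, adjusted p = 0.224) and Ghitm by 0.04 (-0.07 to 0.14, adjusted p = 0.622). The member medians and the all-gene medians were -0.11 and 0.04. Macrophage markers also differed with RANKL. Averaged over hairpins, Fcgr1 (-0.96, limma adjusted p = 3.85e-05), Mertk (-0.69, 8.41e-05), Csf1r (-0.60, 1.47e-05) and Itgam (-0.22, 0.00708) were called lower. Adgre1 (0.15, adjusted p = 0.0539) and Cd68 (-0.14, 0.0834) were not called. The part of these markers in the RANKL differences of the family was not tested.

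**Figure D4:**
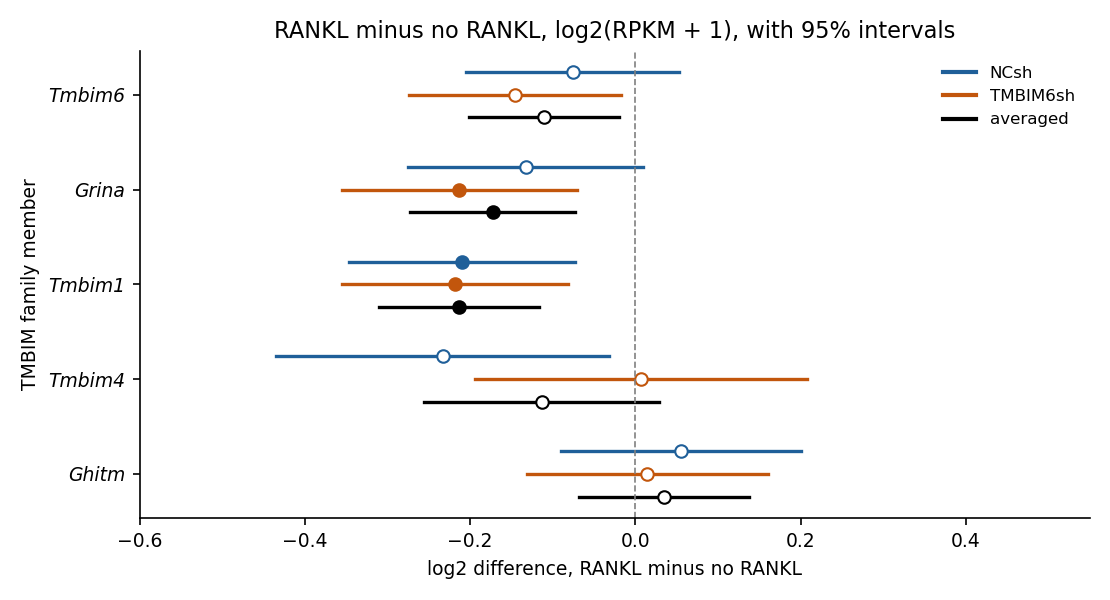
Log2 difference between RANKL and no RANKL, in log2(RPKM + 1), for the 5 detected members in NCsh cells, in TMBIM6sh cells and averaged; points are limma estimates, lines 95% intervals, and filled points have an adjusted p under 0.05. Tmbim1 lies near -0.21 in all 3 estimates, Grina is called in TMBIM6sh cells and on average, and Ghitm lies around 0.

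Whether RANKL acted differently under the hairpins was tested with an interaction term, the RANKL difference in TMBIM6sh cells minus that in NCsh cells. Of all genes tested 0.00906% passed, which is 1 gene, and 0 of the 5 members did in limma. An unadjusted p under 0.05 was reached by 857 genes. Tmbim4 had the largest term among the members, 0.24 (SE 0.127, 95% interval -0.04 to 0.52, limma adjusted p = 0.672). The terms of the others were -0.08 for Grina (-0.28 to 0.12), -0.07 for Tmbim6 (-0.25 to 0.11), -0.04 for Ghitm (-0.25 to 0.16) and -0.01 for Tmbim1 (-0.20 to 0.18). The Tmbim1 interval does not reach the size of its RANKL difference in either hairpin (-0.21 and -0.22). The Grina, Tmbim6, Tmbim4 and Ghitm intervals include values larger than their RANKL differences.

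Partners of the TMBIM proteins were read from 5 lists with 30 genes, of which 29 were tested. Averaged over RANKL states, 3 were called higher and 9 lower in TMBIM6sh cells, beside 15.2% and 25.4% of all genes, and their median log2 difference was -0.06 beside -0.05 over all genes.

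The ER list of TMBIM6 held the larger part of the lower calls: 5 of 7 genes fell and 0 rose, with a median of -0.21. Averaged over RANKL states, 25.4% of all genes tested were called lower and 15.2% higher. Xbp1, the transcription factor whose mRNA is spliced by IRE1, measured 30.0 and 33.2 RPKM in NCsh cells without RANKL, 27.02 and 27.2 with RANKL, 20.6 and 20.2 in TMBIM6sh cells without RANKL, and 16.1 and 18.2 with RANKL. All 4 TMBIM6sh libraries lay below the NCsh libraries, and the averaged difference was -0.62 (SE 0.0539, limma adjusted p = 2.20e-05). Ern1, which encodes IRE1 itself, fell from a mean of 19.1 to 15.1 RPKM (-0.31, adjusted p = 8.58e-04). Of the calcium release channels, Itpr1 fell from 3.37 to 2.39 RPKM (-0.37, adjusted p = 0.00244), while Itpr2 differed by -0.04 (adjusted p = 0.603). Itpr3 fell from 13.1 to 11.3 RPKM (-0.21, adjusted p = 0.00535), with libraries that overlapped between hairpins: its difference was -0.37 (adjusted p = 0.00300) with RANKL and -0.06 (adjusted p = 0.576) without. The ER calcium pump gene Atp2a2 fell by 0.18 (adjusted p = 0.00827), with adjusted p = 0.0314 with RANKL and 0.0950 without, and the reductase gene Por differed by -0.03 (adjusted p = 0.563).

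Among the BCL-2 family partners, 2 of 5 fell averaged over RANKL states, beside 25.4% of all genes tested. Bak1, which encodes a pore-forming death effector, fell from a mean of 56.3 to 43.7 RPKM (-0.36, limma adjusted p = 3.19e-04), with no overlap between the hairpins. Bcl2l1, which encodes the survival protein BCL-XL, fell from 56.5 to 46.5 RPKM (-0.30, adjusted p = 9.21e-04), although its libraries overlapped across RANKL states and it was called with RANKL (-0.42, adjusted p = 0.00164) but not without (-0.17, adjusted p = 0.0946). The interaction term passed for 0 of the 29 partner genes. The members that fell thus included both a death effector and a survival gene. Bax, the effector that names the family, measured 139 and 145 RPKM and differed by 0.06 (adjusted p = 0.544), and Bcl2 and Mcl1 differed by -0.09 (0.534) and -0.06 (0.266).

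The mitochondrial list of GHITM had 3 of 8 genes higher and 0 lower, with a median of 0.09. The shares of all genes tested were 15.2% higher and 25.4% lower. Mcu, the pore of the calcium uniporter, measured 4.99 and 4.27 RPKM in NCsh cells without RANKL, 4.69 and 5.07 with RANKL, 6.18 and 6.79 in TMBIM6sh cells without RANKL, and 6.37 and 6.07 with RANKL. It was higher in all 4 TMBIM6sh libraries than in any NCsh library, by 0.35 (SE 0.0662, limma adjusted p = 0.00220). Slc8b1, a mitochondrial sodium-calcium exchanger gene, rose by 0.21 (adjusted p = 0.0333) and Afg3l2, which encodes a subunit of the inner membrane protease that GHITM binds, by 0.19 (adjusted p = 0.0152). Neither of these passed in a single RANKL state (Slc8b1 adjusted p = 0.114 without and 0.171 with RANKL, Afg3l2 0.0573 and 0.122), where Mcu was the 1 gene of 8 called, and the Slc8b1 libraries overlapped. Letm1 differed by 0.11 (adjusted p = 0.150) and Opa1 by -0.03 (adjusted p = 0.699). Ghitm itself fell in the same libraries.

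On the endosomal list of TMBIM1, 1 of 4 genes fell and 0 rose, with a median of -0.03. This is near the 25.4% of all genes tested that were called lower between hairpins. Tlr4, the lipopolysaccharide receptor that TMBIM1 is known to route to degradation, measured 10.6 to 12.1 RPKM in the 4 NCsh libraries and 7.59 to 9.05 in the 4 TMBIM6sh libraries (-0.39, limma adjusted p = 3.80e-04). On the death receptor list of FAIM2, 5 of 6 genes were tested and 1 fell, again beside 25.4%, with a median of -0.12. This was Cflar, which encodes the caspase-8 inhibitor c-FLIP, lower by 0.13 (limma adjusted p = 0.0389). It did not pass in a single RANKL state (0.159 without and 0.150 with RANKL). RANKL averaged over hairpins called 3 of the 5 tested genes of this list, 2 higher and 1 lower, beside 26.7% of all genes tested (17.1% higher, 9.59% lower). Fas, the death receptor that FAIM2 acts on, measured 2.38 and 2.45 RPKM in NCsh cells without RANKL and 5.70 and 3.96 with RANKL, and 1.74 and 2.21 against 4.69 and 4.54 in TMBIM6sh cells. It was higher with RANKL in every library, by 0.84 averaged over hairpins (SE 0.101, adjusted p = 2.56e-04), and Cflar rose by 0.47 (adjusted p = 6.83e-05) while Tnfrsf1a fell by 0.17 (adjusted p = 0.0146). Faim2 remained at 0 in these same libraries. Over all lists, RANKL averaged over hairpins called 4 of 29 genes higher and 6 lower, beside 17.1% and 9.59% of all genes tested, with a median of -0.01 beside 0.04 over all genes.

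**Figure D5:**
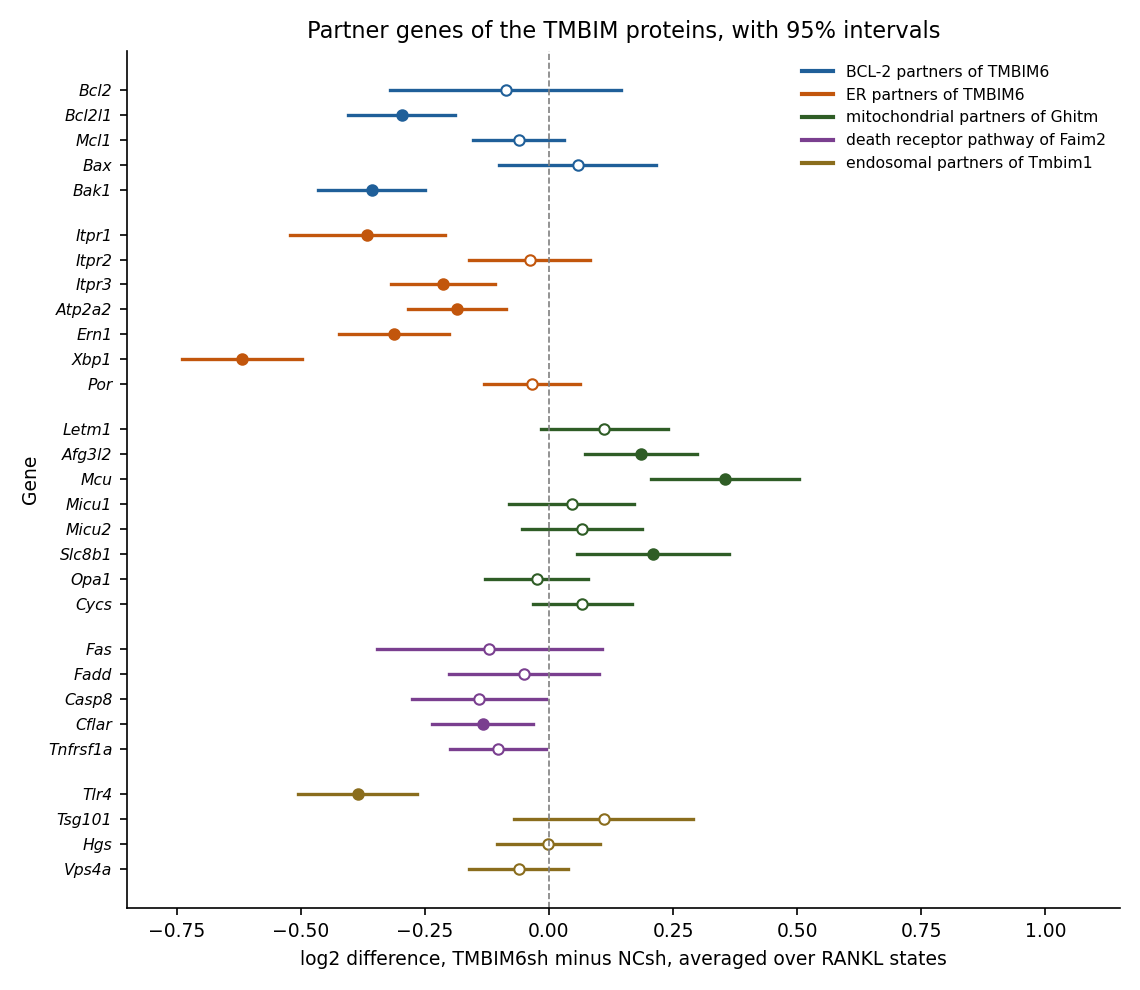
Averaged log2 difference between TMBIM6sh and NCsh, in log2(RPKM + 1), for the 29 tested partner genes, grouped by list; points are limma estimates, lines 95% intervals, and filled points have an adjusted p under 0.05. Filled points of the ER list all lie to the left of 0, with Xbp1 at -0.62, and those of the mitochondrial list to the right.

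Of the members' chromosomal neighbours 8 were tested, and 2 of these, Pnkd and Irak3, were called averaged over RANKL states, both higher, beside 40.6% of all genes called and 15.2% called higher. The rows around Tmbim6 were Fmnl3, which differed by 0.05 (limma adjusted p = 0.430) averaged over RANKL states, and Nckap5l, by -0.02 (adjusted p = 0.904). Beside Grina, Parp10 differed by -0.03 (adjusted p = 0.635), and the microRNA row Mir6953, which lies within the Grina span, by 0.10 (adjusted p = 0.736). Pnkd, whose row ends 794 bases from Tmbim1, was one of them. It measured 10.3 and 14.3 RPKM in NCsh cells without RANKL, 12.4 and 12.9 with RANKL, 18.7 and 18.7 in TMBIM6sh cells without RANKL, and 16.7 and 22.2 with RANKL, and rose by 0.58 (SE 0.105, adjusted p = 0.00183). Irak3, 6696 bases from Tmbim4, rose by 0.16 (adjusted p = 0.00999, with 0.0224 without RANKL and 0.181 with RANKL), and Llph, on the other side, differed by 0.06 (adjusted p = 0.470).

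The genes whose profile was most like each member over the 8 libraries were listed as a description, by Pearson r of log2(RPKM + 1) over the 7533 genes whose mean reached 5 RPKM. The libraries fall into hairpin groups, so r mostly reads the step between hairpins, and for Tmbim1 (-0.27 averaged) also the RANKL step (-0.21 averaged). For Tmbim6 these were Cacul1 (r = 0.9989, mean 18.9 RPKM in NCsh and 9.57 in TMBIM6sh), Usp12 (0.997) and Atp6v1a (0.9966), a subunit gene of the vacuolar proton pump that went from 133 to 70.1 RPKM. For Grina they were the G protein alpha subunit genes Gnai2 (r = 0.9972, from 264 to 421 RPKM) and Gna12 (0.9956), and the inositol phosphatase gene Inpp5a (0.9933, from 4.48 to 8.58 RPKM). For Tmbim1 they were Lgals9 (0.9931), Ncf1 (0.9915) and Fam129b (0.9888), and for Tmbim4 Gpx4 (0.9911), Ttll3 (0.985) and Pld3 (0.9848). For Ghitm they were Slu7 (0.9912), Sec62 (0.9838) and Sdhd (0.9827), a subunit gene of mitochondrial complex II.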

How the data were processed

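Total RNA of the 8 libraries was sequenced on a HiSeq2500, per the labels. The authors deposited RPKM values for 24940 genes, counted over exons of both strands with 1 transcript kept per gene on mm10 by HOMER, per the file header, whose column heads read FPKM. HISAT2 and DESeq2 are further tools listed in the submitters' processing notes, with no version given. RPKM values times exon length came in whole steps, which gave the depth of each library and its tags: in each library 2752 to 2880 low values were examined, and 100% came within 0.1 tags of a whole number. Libraries of a group differed beyond counting noise (chi-square per degree of freedom 3.39 to 11.1), so none were merged. Genes with at least 1 RPKM in at least 2 libraries (11040) were tested on log2(RPKM + 1) with limma 3.58.1 in R 4.3.3, with an intensity trend, 1 mean per group over all 8 libraries (4 residual and 5.54 prior degrees of freedom) and Benjamini-Hochberg adjustment over the 11040 genes at a threshold of 0.05. A fold change on this scale understates changes of low genes. The procedure was tested on simulated data with the same spread in every group and changes in 1 group only, a simpler setting than these libraries. Intervals are 95%. The 7 comparisons were RANKL within each hairpin, hairpin within each RANKL state, both averaged, and the interaction. Alternatives were a pseudocount of 0.1, no filter, median-ratio scaling, the compared groups alone, a replicate block, voom on the recovered tags, no intensity trend, and leaving out each library. Named genes were the 6 members, other Tmbim rows, chromosomal neighbours, the partner lists, and the 3 genes most like each member. The members, lists and tests were chosen with earlier results of these data known. Sequences came from RefSeq (GRCm38.p6) and GENCODE M21.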

Additional observations from a re-analysis of the deposited data

How the results depend on the processing

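Member values were recomputed under 510 combinations of comparison and alternative: 442 kept their direction and side of the threshold, 45 lost a call, 5 gained one and 18 changed sign, all of them values not called. Averaged hairpin calls held in 70 of 70, and the Grina and Tmbim6 hairpin calls in each RANKL state and the Tmbim4 call without RANKL held in every alternative. For RANKL in NCsh cells, members called numbered 0 with no filter, no intensity trend, the replicate block or the compared groups alone, and 3 with median-ratio scaling. Genes called numbered 2480 with voom and 1094 with the compared groups alone, against 1653. In TMBIM6sh cells, members called numbered 1 with a pseudocount of 0.1 or the compared groups alone, and 0 with no filter or no intensity trend. Interaction genes numbered 8 with no filter and 2 with no intensity trend. Median-ratio scaling turned Ghitm under RANKL to -0.0268 in NCsh cells, -0.0109 in TMBIM6sh cells and -0.0188 averaged, Tmbim4 in TMBIM6sh cells to -0.0182, and the interaction terms of Tmbim1 to 0.0474 and of Ghitm to 0.0159. With voom the Tmbim1 interaction term was 0.0037. The cause of these shifts was not tested.

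Leaving out each library in turn gave 709 to 1523 genes called for RANKL in NCsh, 846 to 2055 in TMBIM6sh, 1420 to 2527 and 1884 to 3561 for the hairpin without and with RANKL, and 0 to 2 for the interaction. Members called numbered 0 to 1, 0 to 2, 3 to 5 and 2 to 5 in the first 4, and 1 to 3 for RANKL averaged. Ghitm under RANKL ran from -0.00697 to 0.118 in NCsh cells and from -0.0164 to 0.0455 in TMBIM6sh cells, and Tmbim4 in TMBIM6sh cells from -0.0586 to 0.0721. The interaction terms ran from -0.0662 to 0.0481 for Tmbim1 and from -0.103 to 0.0215 for Ghitm. A group reduced to 1 library was assumed to vary like the others.

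No sign of pairing was seen between same-numbered libraries: their deviations from the group means correlated at -0.0651 to 0.0625. The labels do not say whether they share a mouse or a culture. With the replicate block 1608 genes were called for RANKL in NCsh cells, where Tmbim1 missed the threshold (adjusted p = 0.0534), and the block changed no other member call. With 2 libraries a group, the precision of each value rests on the spread shared across groups.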
